A study of Mus musculus with 2 samples.

Results

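The genes described here are 7 transcripts of mouse kidney, Hdc, Akr1c18, Pik3c2g, Azgp1, Slco1a1, Odc1 and Kap, most of them known to answer to hormones. The group was chosen by low mutant over wild type ratios on these same arrays, although Kap had no readable ratio. Its genes were found by matching gene names on the probes that were not controls. Those ratios are therefore given as a description, without a test. Each of the 7 had 1 probe, among 19481 named genes on the array, 18357 of which passed the filter and were tested. Only 6 of the 7 had a ratio that could be read, because the Kap spot was saturated everywhere.

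Whole-kidney RNA labelled Glis2 KO was hybridised with RNA labelled Glis2 WT on 2 two-colour Agilent arrays, with the mutant in Cy3 on array 1 and in Cy5 on array 2. The Glis2 protein is a zinc finger transcription factor whose loss causes nephronophthisis, a scarring kidney disease. The series text states pools of 3 kidneys, mice of 25 or 60 days after birth and 2 independent experiments. The labels give no age for either array and no sex, strain or allele, and they do not say whether the arrays are separate experiments or duplicates of the same pools. P-values here set the mean ratio of a gene against the spread between the 2 arrays, drawn largely from all genes together. That spread may be only technical.

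Kidneys of mice are strongly shaped by sex hormones, above all in the proximal tubule, where androgens raise a set of secreted proteins, transporters and enzymes. Kap, the kidney androgen-regulated protein, is the classical marker of that response. Odc1, ornithine decarboxylase, makes the polyamine putrescine and is induced by androgens in mouse kidney, and Slco1a1 carries organic anions and depends on androgens there. Akr1c18 inactivates progesterone. Hdc makes histamine from histidine and in mouse kidney is known to answer to oestrogen and thyroid hormone. Azgp1 encodes a secreted zinc-binding glycoprotein that promotes fat breakdown, and Pik3c2g a class II phosphoinositide 3-kinase that acts in insulin signalling in mouse liver.

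In each channel the median spot was 4.06 to 5.18 times its local background. The number of arrays limits the precision. The Glis2 probe itself gave log2 ratios of 0.32 and 0.16 on arrays 1 and 2, with an adjusted p of 0.328 in limma. It was thus higher on both arrays in the RNA labelled mutant and not called. Where this probe lies relative to the altered part of the gene is not given in the sources used here, so it does not check the labels. Of all 18357 genes limma called 3.79% higher and 1.21% lower at an adjusted p under 0.05. Across them the median log2 ratio was -0.003 on array 1 and 0.02 on array 2.

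The stretches upstream of 5 of the genes are shown because they carry the letters searched for and differ plainly in base composition. RefSeq promoter windows for the assembly GRCm38.p6 were found for all 7 genes, 8 windows in all, each with 250 bases before the annotated start and 50 after it. The 150 bases before the start follow for Hdc (chr2:126618679-126618828, minus strand), Odc1 (chr12:17544723-17544872, plus strand), Akr1c18 (chr13:4150647-4150796, minus strand), Slco1a1 (chr6:141946963-141947112, minus strand) and Kap (chr6:133853668-133853817, minus strand). For Azgp1 only 30 bases just after the start are shown (chr5:137981523-137981552, plus strand). Capitals mark a steroid hormone receptor half-site in Hdc and Azgp1 and each CG pair in Odc1. In Akr1c18, Slco1a1 and Kap they mark the letters TATAA within 40 bases before the start. Another TATAA further upstream in Slco1a1 is left in lower case.
Hdc: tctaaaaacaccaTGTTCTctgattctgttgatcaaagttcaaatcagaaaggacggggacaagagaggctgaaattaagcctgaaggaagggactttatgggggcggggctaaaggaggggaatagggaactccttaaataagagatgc
Azgp1: tcctgtgtagacTGTTCTcccgggcactac
Akr1c18: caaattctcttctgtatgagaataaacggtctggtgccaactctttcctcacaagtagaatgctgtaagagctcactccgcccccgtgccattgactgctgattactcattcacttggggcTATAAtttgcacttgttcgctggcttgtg
Slco1a1: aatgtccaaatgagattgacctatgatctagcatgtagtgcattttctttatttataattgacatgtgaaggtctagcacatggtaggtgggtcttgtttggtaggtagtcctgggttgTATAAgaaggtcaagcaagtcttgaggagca
Kap: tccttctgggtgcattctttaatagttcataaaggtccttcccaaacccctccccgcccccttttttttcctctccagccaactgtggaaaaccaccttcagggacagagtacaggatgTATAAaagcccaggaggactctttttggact
Odc1: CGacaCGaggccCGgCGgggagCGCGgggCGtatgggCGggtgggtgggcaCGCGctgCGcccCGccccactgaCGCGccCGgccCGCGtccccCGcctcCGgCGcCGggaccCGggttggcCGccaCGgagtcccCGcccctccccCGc

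The half-site, a sequence that several steroid hormone receptors share, searched as AGAACA or TGTTCT so that both strands were covered, was present in the windows of 2 of the 7 genes. Counted from the annotated start, it began at position -137 in Hdc and at position 14 in Azgp1. It was held by 18.97% of all 32851 RefSeq windows. A pair of half-sites facing each other 3 bases apart was in 0 of the 8 windows and in 0.00913% of all windows. The letters TATAA stood within 40 bases before the start in Akr1c18, Slco1a1 and Kap, against 4.23% of all windows. GC content was 78.0% in Odc1, higher than in 98.1% of all windows, and 36.0% and 40.7% in the 2 windows of Pik3c2g. These matches describe letters and not bound sites.

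Hdc, which makes histamine, had the lowest ratio of the genes described. Its spot signal above local background was 514 and 619 scanner units in wild type on arrays 1 and 2, and 113 and 68.5 in the mutant. Both mutant channels lay far below both wild type channels, which the choice of the gene by its ratio made likely. Every channel was well above background by the scanner's flag. The log2 ratio was -2.03 on array 1 and -2.33 on array 2, with a mean of -2.18 (SD 0.21, n = 2), or 4.54-fold lower. Of the 18357 genes only Bfar, named after its value was seen, had a lower mean. Negative control spots averaged 13.1 on array 1 in the mutant channel and 21.6 on array 2, and the mutant Hdc signal stood closest to that floor among the genes here. The wild type channel of array 2 had the highest such average, 68.9.

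Akr1c18, the progesterone-inactivating 20-alpha-hydroxysteroid dehydrogenase, was brighter and had rank 5 from the lowest of all genes. Wild type signals were 3044 and 3390 units and mutant signals 957 and 745 units on arrays 1 and 2. The genotypes did not overlap, and how many of all genes separate in this way was not counted. The log2 ratio was -1.72 on array 1 and -2.07 on array 2, with a mean of -1.90 (SD 0.25, n = 2), which is 3.72-fold lower. The fold and the lack of overlap are descriptions, since the ratio chose the gene.

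Pik3c2g and Azgp1 gave nearly the same ratios in the setting reported. Elsewhere they lay further apart, with means of -1.71 and -1.40 by the scanner software's log ratio and -1.55 and -1.36 with plain background subtraction. Pik3c2g, the lipid kinase, had 321 and 360 units in wild type and 156 and 77.7 units in the mutant, and log2 ratios of -1.09 and -1.43 (mean -1.26, SD 0.24, n = 2). Azgp1, the secreted glycoprotein, had 894 and 817 units in wild type and 443 and 255 units in the mutant, and log2 ratios of -1.08 and -1.41 (mean -1.25, SD 0.24, n = 2). In both genes the mutant signal was lower on array 2 than on array 1, while the wild type signal was higher on array 2 for Pik3c2g and lower for Azgp1. Their means correspond to 2.39-fold and 2.37-fold lower levels.

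Slco1a1, the organic anion carrier, showed 369 and 472 units in wild type and 194 and 202 units in the mutant. Its log2 ratios were -0.99 and -0.90, with a mean of -0.95 (SD 0.06, n = 2), or 1.93-fold lower. Odc1, the polyamine-forming decarboxylase, was bright, with 18007 and 18261 units in wild type and 10315 and 9833 units in the mutant. Its log2 ratios were -0.82 and -0.88, with a mean of -0.85 (SD 0.04, n = 2), or 1.80-fold lower. These 2 genes, both androgen-induced in mouse kidney, varied least between the arrays and were lowered least.

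Kap gave no ratio. Its spot had 65275 and 65243 units in wild type and 65242 and 65247 units in the mutant, the ceiling of the scanner. All pixels of the spot were saturated, 61 of 61 in each channel of array 1 and 60 of 60 in each channel of array 2. The label of strong falls therefore could not be checked for Kap, and these files hold only that Kap was at the ceiling in both genotypes.

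**Figure D1:**
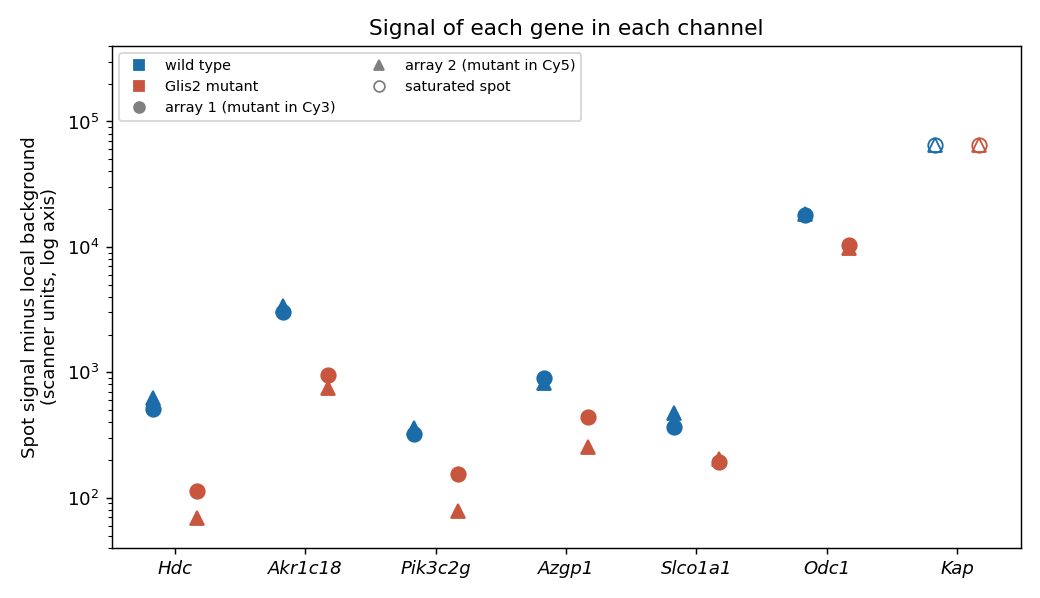
Spot signal minus local background in scanner units on a log axis, for each gene, in wild type (blue) and Glis2 mutant (red) on array 1 (circles) and array 2 (triangles); open symbols are saturated spots. In the 6 genes from Hdc to Odc1 both mutant points lie under both wild type points, which their choice by these ratios made likely. How many of all genes separate in this way was not counted, so nothing is read from it. The 4 Kap points lie together at the ceiling near 65242 units.

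By mean log2 ratio the order from the lowest was Hdc, Akr1c18, Pik3c2g, Azgp1, Slco1a1 and Odc1. The ranges of the 2 arrays overlapped between Hdc and Akr1c18, whose means lay 0.28 apart, and between Pik3c2g and Azgp1, whose means lay 0.01 apart. They did not overlap between Akr1c18 and Pik3c2g, between Azgp1 and Slco1a1, or between Slco1a1 and Odc1. With 2 arrays these gaps carry no test, and they changed with the processing. With the scanner software's log ratios Akr1c18 (-1.79 and -2.16) overlapped Pik3c2g (-1.44 and -1.99). Azgp1 (-1.18 and -1.61) then overlapped Slco1a1 (-1.29 and -1.10), and Hdc (-2.72 and -3.12) did not overlap Akr1c18. In the setting reported the 4 genes Hdc, Akr1c18, Pik3c2g and Azgp1 were at least 2-fold lower on both arrays, as were 0.0708% of all genes. Slco1a1 and Odc1 were not, though Slco1a1 was with the scanner software's log ratios. Nothing is read from this count, because the contrast chose the genes. The median of the 6 was -1.08 on array 1 and -1.42 on array 2.

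Because the dyes were swapped, the distance of each turned ratio from the mean of both holds the dye effect together with any difference between arrays. In absolute size this distance ran from 0.03 in Odc1 to 0.18 in Akr1c18 on the log2 scale. Over all genes its median was 0.08 and its 95th percentile 0.28. In each of the 6 genes it was smaller in size than the mean ratio. That only restates that both turned ratios were below 0, as were those of 28.9% of all genes. The choice of the 6 by these ratios made it likely, so nothing is read from it.

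The 5 other genes whose pair of ratios lay nearest to the median pair of the 6 were Mpst, Ugt2b38, Mccc1, Gldc and Sugct. Likeness was the Euclidean distance over the 2 arrays, and it ran from 0.19 for Mpst to 0.41 for Sugct. Mpst, a sulfurtransferase of cysteine breakdown, had log2 ratios of -1.08 and -1.23. Ugt2b38, a glucuronosyltransferase, had -1.16 and -1.21. Mccc1, of leucine breakdown, had -0.95 and -1.17. Gldc, of the glycine cleavage system, had -1.21 and -1.14, and Sugct, a CoA transferase, had -0.76 and -1.17.

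**Figure D2:**
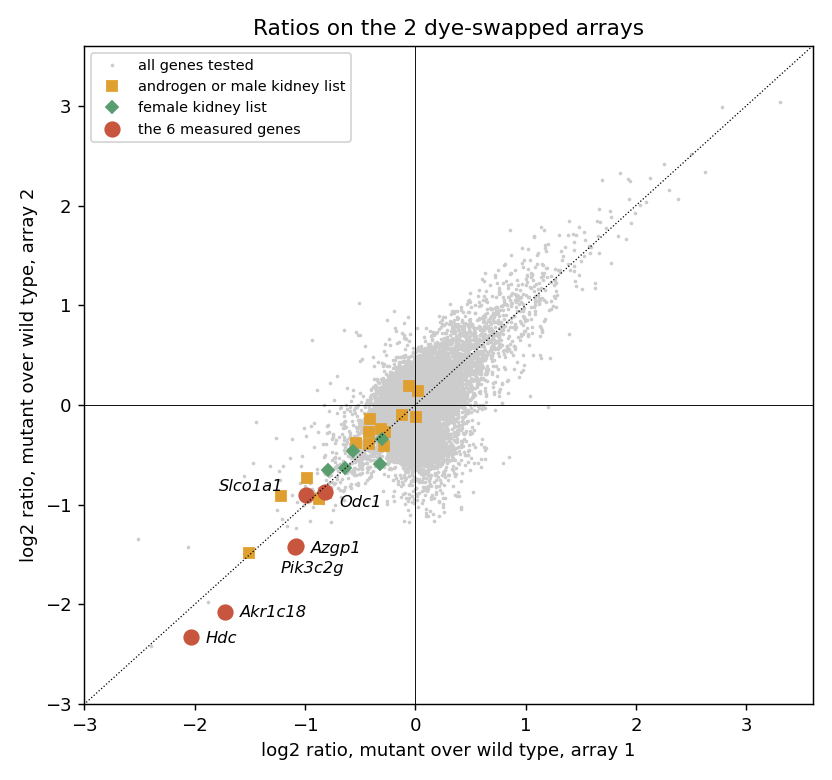
The log2 ratio of mutant over wild type on array 1 (horizontal) against array 2 (vertical) for all 18357 genes (grey), the 6 measured genes (red), and the androgen or male kidney list (yellow squares) and female kidney list (green diamonds) described in the text. Hdc and Akr1c18 lie near the lower left end of the cloud, and Pik3c2g and Azgp1 almost coincide in the setting reported. Slco1a1 and Odc1 lie near Slc7a13, Acsm3 and Spink1 of the yellow list, while Cyp4b1 of that list lies lower.

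Related genes were then tested, on 10 lists built around each gene's pathway and around sex and steroid hormones. Of 143 measured genes on them, limma called 14 lower and 4 higher and left 125 uncalled; Prlr stands on both the receptor and the female kidney list. These calls depended on the processing: taking the log ratios that the scanner software computed, limma called 0 of the 143 genes. With those ratios 39 of the 143 had an unadjusted p under 0.05, against 47 in the setting reported. Over all 18357 genes the numbers were 2521 and 3018. Counts at an unadjusted p given below for single lists are to be read beside that share of all genes. Genes with near-identical copies, such as the Akr1c, Hsd3b, Slco1a, Cyp2j and Cyp4a families, are uncertain, since a probe may bind several of them and cross-binding was not checked here.

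Among other genes known as androgen-induced or as higher in male mouse kidney, 5 of 16 measured fell and 11 were not called. Below 0 on both arrays were 13 of the 16, and 28.9% of all genes. The list median was -0.34, against 0.01 over all genes. Cyp4b1, a fatty acid and xenobiotic hydroxylase, fell most, at -1.51 and -1.49 on arrays 1 and 2 (mean -1.50 ± 0.11, moderated SE, n = 2, adjusted p = 0.000485 in limma). Nudt19, long known as the androgen-regulated kidney transcript RP2, fell by 1.06 on the log2 scale (-1.21 and -0.91, adjusted p = 0.00275 in limma).

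Slc7a13, an amino acid transporter of the straight proximal tubule, had a mean log2 ratio of -0.91 (adjusted p = 0.00335 in limma), and the acyl-CoA synthetase Acsm3 -0.86 (adjusted p = 0.00622 in limma). The remaining gene that fell was the trypsin inhibitor Spink1 (-0.84), named after its value was seen. Both of the classical androgen-induced kidney genes Gusb and Adh1 were not called. Gusb, beta-glucuronidase, had -0.12 and -0.10 on the 2 arrays, and Adh1, alcohol dehydrogenase, had 0.02 and 0.14; both were named after their values were seen.

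Among genes known as higher in female kidney, 3 of 5 measured fell and 2 were not called. All 5 were below 0 on both arrays, as were 28.9% of all genes, and their median was -0.51. Cyp4a14, a fatty acid hydroxylase, had a mean log2 ratio of -0.72 (-0.79 and -0.65, adjusted p = 0.00982 in limma). The prolactin receptor Prlr had -0.64 (-0.64 and -0.63, adjusted p = 0.0148 in limma), and its second, dimmer probe gave -0.20 on array 1 and -0.84 on array 2. The amino acid transporter Slc7a12 had -0.51 (adjusted p = 0.0378 in limma). In the setting reported some genes of each kind, male-type and female-type, thus fell on the same 2 arrays of pooled RNA. The female list had 0 lower calls with plain subtraction, an offset of 16, median centring or scanner ratios. There the male list had 1, 5, 3 and 0. Without background subtraction the male and female lists had 6 and 4, and with a trended and robust prior 11 and 5. The difference between the lists was not tested.

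Probes for Xist and for 3 Y-linked genes gave signal in both genotypes. Xist, which silences an X chromosome in female cells, had 1368 and 1833 units in the mutant and 1587 and 1889 in wild type on arrays 1 and 2. The Y-linked Eif2s3y had 247 and 224 units in the mutant and 247 and 291 in wild type. Kdm5d, also Y-linked, had 186 and 124 in the mutant and 143 and 165 in wild type. Ddx3y, the third measured Y-linked gene, had 79.4 and 76.6 in the mutant and 75.5 and 104 in wild type. Xist and all 3 Y-linked genes were well above background in every channel by the scanner's flag. Between 94.6% and 97.4% of all spots met that flag, depending on the channel, so it separates little. Negative control spots averaged 68.9 in wild type on array 2, where Ddx3y had 104, and 3.54 to 21.6 in the other channels.

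The log2 ratios of Xist were -0.31 and 0.00 on arrays 1 and 2, those of Eif2s3y -0.21 and -0.11, those of Kdm5d 0.03 and 0.08 and those of Ddx3y -0.33 and 0.15. limma called 0 of these 4, and 0 had an unadjusted p under 0.05. Uty, also Y-linked, was not well above background on array 2. The part that the sex of the pooled mice may have in the lower signals was not tested.

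Among 13 measured hormone receptor genes only Prlr was called, and 12 were not. The oestrogen receptor gene Esr1 had log2 ratios of -0.20 and -0.29 (adjusted p = 0.317 in limma), and was named after its value was seen. The growth hormone receptor gene Ghr had -0.72 and -0.36 (adjusted p = 0.0561 in limma), also named afterwards. The list median was -0.09.

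Of 25 steroid hormone enzymes 4 fell, 1 rose and 20 were not called. The falls were all in the Hsd3b family, whose members oxidise or reduce steroids at carbon 3: Hsd3b4 (-0.87, adjusted p = 0.00487 in limma), Hsd3b5 (-0.82), Hsd3b3 (-0.55) and, named after its value was seen, Hsd3b6 (-0.52). The rise was in Hsd3b1, the adrenal and gonadal form (0.38 on array 1 and 0.78 on array 2, mean 0.58, adjusted p = 0.0452 in limma). It was dim and not well above background in wild type on array 2. Its mean was 0.91 with an offset of 16, 1.06 with plain background subtraction and 1.76 with the scanner's log ratio, and its call was lost in 6 of the other 9 settings, among them the one without a filter (adjusted p = 0.0589 in limma). The list median was -0.07.

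In the family of Akr1c18, the aldo-keto reductases, 1 of 14 measured genes fell and 2 rose. Akr1c14, a 3-alpha-hydroxysteroid dehydrogenase, had log2 ratios of -1.07 and -0.98 (mean -1.02 ± 0.11, moderated SE, n = 2, adjusted p = 0.00215 in limma). Akr1c12 had a mean log2 ratio of 0.52 (adjusted p = 0.0367 in limma) and Akr1b8 0.56 (adjusted p = 0.0249 in limma). Over 11 settings that used both arrays, the one reported among them, the call was lost in 2 for Akr1c14. It was lost in 5 for Akr1c12 and in 5 for Akr1b8, and the direction reversed in 0 for each. In the setting reported the family did not move as one, and its median was -0.04.

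Around Odc1, 1 of 20 polyamine genes fell and 19 were not called, with a list median of -0.02. The gene that fell was Oat, ornithine aminotransferase, which draws on the same ornithine that Odc1 uses (-0.63, with -0.73 and -0.52 on the 2 arrays, adjusted p = 0.0199 in limma). Around Hdc, limma called 0 of 14 histamine genes, with 5 at an unadjusted p under 0.05 and a median of 0.04. The largest ratios there were those of Aoc1, the histamine-degrading diamine oxidase (0.54, adjusted p = 0.0527 in limma), and Maob, a monoamine oxidase (0.38).

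Around Slco1a1, limma called 0 of 13 members of the Slco family, with 2 at an unadjusted p under 0.05 and a median of -0.05; Slco6d1 had -0.44 and the close relative Slco1a6 -0.39. Around Pik3c2g, limma called 0 of 17 phosphoinositide kinases and phosphatases, with 2 at an unadjusted p under 0.05 and a median of -0.08. Inpp5d, a lipid phosphatase of leukocytes, had 0.41 and Pik3cb, a class I kinase, -0.41. Around Azgp1, which has an MHC class I-like fold, 1 of 7 such genes rose, Cd1d1, a lipid antigen-presenting protein (0.71, adjusted p = 0.0246 in limma), and the list median was 0.23.

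**Figure D3:**
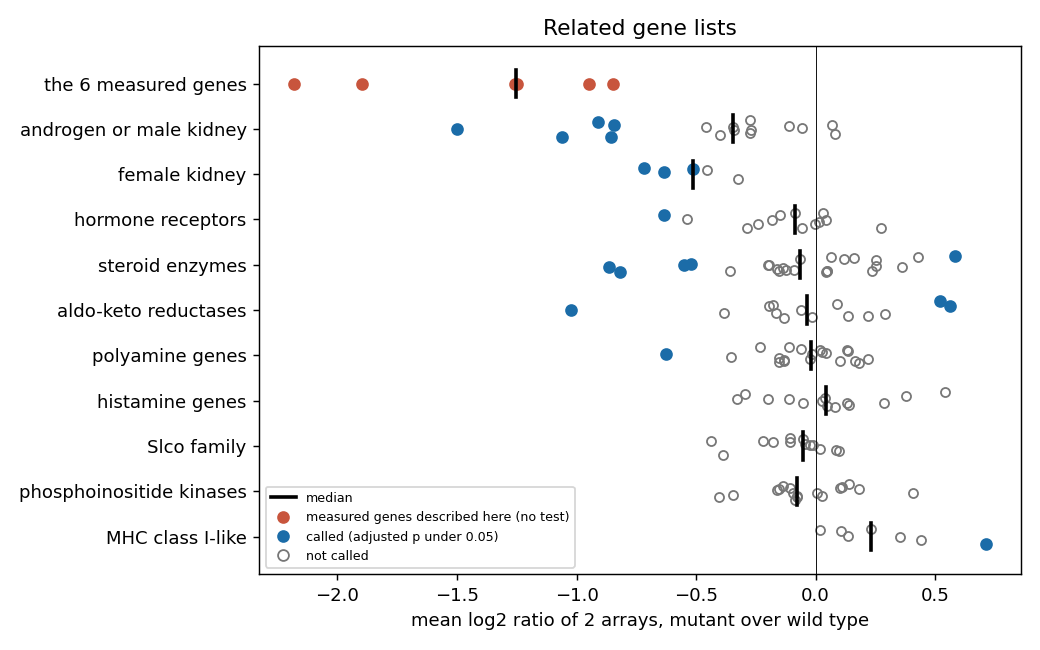
Mean log2 ratio over the 2 arrays for the 6 measured genes (red, no test) and for each gene of the 10 related lists, filled blue where limma called it and open where it did not; black bars are medians. The medians of the 6 genes (-1.25), the female kidney list (-0.51) and the androgen or male kidney list (-0.34) lie left of the others, which run from -0.09 to 0.23.

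Markers of other cell types moved at the same time, and in bulk tissue fewer cells of a type and less RNA per cell cannot be told apart. Of 10 markers of the early and middle proximal tubule 3 fell, with a median of -0.35. The summed signal of the 10 was 83691 to 98165 units in the mutant and 105118 to 111296 in wild type. Pck1, with a mean log2 ratio of -0.15, weighs most in that sum. Its mean log2 intensity was 15.9, near the ceiling of the scanner. Of 10 markers of the straight proximal tubule 3 fell, with a median of -0.28 and summed signals of 21555 to 23228 and 26858 to 30703 units. Slc7a13 and Acsm3 stand on this list and on the androgen list.

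Of 12 macrophage markers 10 rose, and their summed signal was 17744 to 18508 units in the mutant and 5590 to 6708 in wild type. All 9 measured fibroblast markers rose, with 16106 to 16492 units against 5502 to 6600. Of 12 adipocyte markers 7 rose and 2 fell, with 41146 to 41676 units against 18609 to 21566. Every measured marker of these 3 lists was well above background in both genotypes on both arrays. The part of these cells in the lower signals was not tested.

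Mast cells are the best known source of Hdc. limma called 0 of 8 mast cell markers, with 1 at an unadjusted p under 0.05, and the list median was 0.02. Their summed signal was 1297 to 1458 units in the mutant and 1099 to 1799 in wild type, so the genotypes overlapped. Of 5 measured markers of other kidney cells, 1 fell, the renin gene Ren1, and 4 were not called. Of 10 adrenal markers 1 rose, Hsd3b1, and 9 were not called.

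How far the ratios depended on processing differed among the 6 genes. Odc1 stayed between -0.89 and -0.85 over 10 settings that used both arrays, and Akr1c18 between -1.97 and -1.89. Hdc ran from -2.92 to -2.11, Pik3c2g from -1.71 to -1.21, Azgp1 from -1.40 to -1.23 and Slco1a1 from -1.19 to -0.92. The lowest value of Hdc, Akr1c18, Pik3c2g, Azgp1 and Slco1a1 came from the scanner software's own log ratio. An offset of 50 units, added to both channels in the setting reported, draws the ratios of dim spots towards 0, so the folds printed above understate those of the dim genes most. From net signals alone, with no such offset and no dye correction, Hdc was 4.54-fold lower on array 1 and 9.05-fold lower on array 2.

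**Figure D4:**
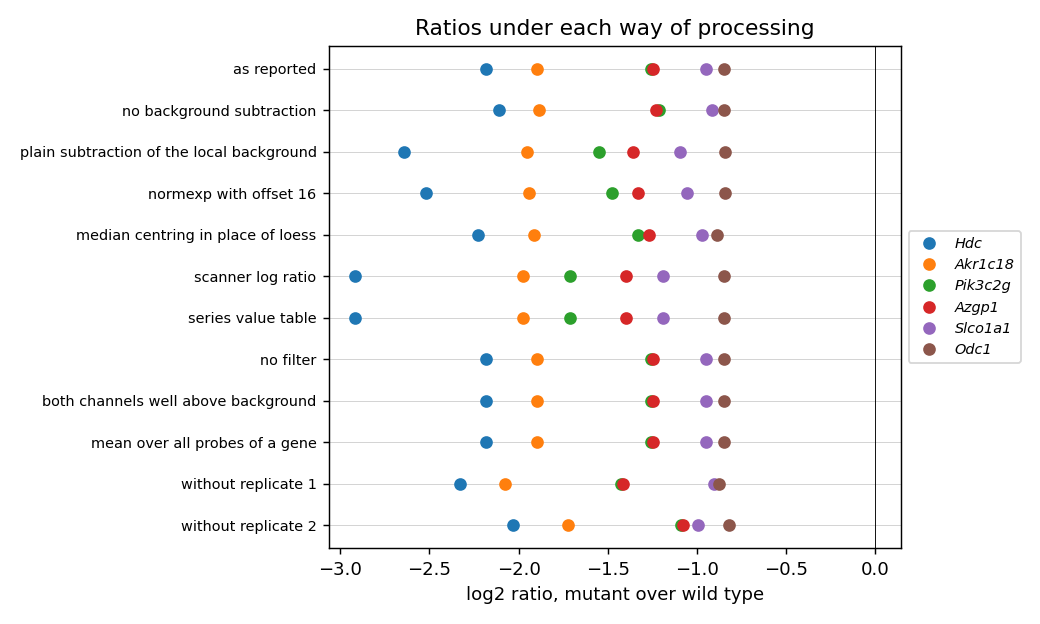
Log2 ratio of mutant over wild type (horizontal) for each of the 6 genes (colours) under each way of processing (rows), including each array alone. All points lie left of 0, Odc1 hardly moves among settings that use both arrays, and among those Hdc ranges from -2.92 to -2.11, with -2.03 on array 1 alone.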

How the data were processed

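Two-colour Agilent arrays of kidney RNA were read with Agilent Feature Extraction 8.1.1.1, per the file headers. The authors deposited mean spot and median local background intensity per channel, before normalization, and the pixels of each spot with the count of saturated ones, which fill other columns per the file headers. They also deposited the scanner's log10 ratio, dye-normalized per the file headers; the series value table equals it with the sign turned on 22393 features (largest difference 0), with column medians of 0, so its scale and direction (Cy3 over Cy5) are known.

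With R 4.3.3 and limma 3.58.1, intensities were corrected by normexp (offset 50) and log2 ratios normalized by loess within arrays, control spots unweighted; ratios were turned to mutant over wild type. Control spots and 88 outlier-flagged spots were left out. A spot had to be well above background in one genotype on both arrays. The brightest probe stood for a gene. lmFit and eBayes tested 18357 genes (Benjamini-Hochberg, adjusted p under 0.05; 1 residual and 6.58 prior degrees of freedom; SE moderated). Spots saturated in every channel were not removed before normalization or the fit, so such genes, Kap among them, count in the 18357. Their ratios were left out of the gene descriptions and the lists. Each array was its own slide and held both genotypes, so slide and dye orientation cannot be told apart. Probes were named through RefSeq accessions (14302 spots), current symbols (2439), older symbols (2300) or the file's name (2277).

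The genes and lists were chosen with earlier results of these data known. Named were all 7 genes, up to 4 called genes of each related list by absolute mean (without a call, the 2 largest), the sex chromosome genes and the 5 genes nearest in pattern. One gene of the receptor list is not reported here. The steps were tested on simulated data. Alternatives changed background correction, offset, normalization, ratio source, filter, probe rule, prior, arrays and promoter window.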

Additional observations from a re-analysis of the deposited data

How the results depend on the processing

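All 6 genes kept a negative ratio in every setting run, which their choice on these ratios makes likely and which is no sign of stability. Their median, -1.25 as reported, became -1.55 when ratios were taken from the scanner or from the value table of the series (the same numbers), and was -1.42 to -1.08 with each array alone. The median of the androgen or male kidney list was -0.41 to -0.33 with each array alone. That of the female kidney list was -0.54 with median centring and -0.59 to -0.56 with each array alone. Against 14 lower and 4 higher calls on the related lists, limma gave 7 higher without background subtraction. Plain subtraction gave 2 and 0, an offset of 16 gave 8 and 0, median centring gave 5 and 0, and a prior that was trended and robust gave 31 and 13. Scanner ratios, or the value table, gave 0 and 0, with 39 genes at an unadjusted p under 0.05; that number was 40 with plain subtraction, 41 with offset 16 and 40 with median centring. Over all genes, 223 lower and 696 higher calls became 24 and 204 under plain subtraction, 56 and 302 under the offset of 16, 48 and 235 under median centring, 0 and 0 under scanner ratios (2521 genes at an unadjusted p under 0.05) and 932 and 1540 with the trended prior. The share of higher calls, 75.7% as reported, was 89.5% with plain subtraction and 62.3% with the trended prior. The causes of these shifts were not tested. A steroid hormone receptor half-site was in 1 gene's window when only the bases before the start were searched. The ratios within arrays already pair the genotypes, so there was no further pairing to fit. Dim spots limit Hdc, whose mutant signal over local background was 3.31 and 2.27.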

Other observations

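A few other hormone-linked genes stood out after their values were seen. Mup1, a major urinary protein gene that growth hormone and androgens raise in mouse liver, was on the liver marker list and rose, with log2 ratios of 1.49 and 1.30 (adjusted p = 0.000778 in limma). Its second probe gave 2.05 and 1.43. The other 6 measured liver markers were not called, among them albumin, Alb, at -0.10 and -0.19. Serpina6, which encodes the corticosteroid-binding globulin of plasma, had -1.11 and -0.90, and Egf, the epidermal growth factor gene of the distal tubule, had -0.96 and -0.96; limma called both lower (adjusted p = 0.00268 and 0.00262).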
